A study of Mus musculus with 217 samples.

Results

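The 7 long noncoding RNAs *Neat1*, *Malat1*, *Meg3*, *Miat*, *Snhg11*, *Rian* and *Mirg* were followed across every library of the series. They were chosen by name, with earlier results of these data known, as transcripts known to stay in the nucleus. All 7 were found among the 54532 genes of the count tables. RNA-Seq was done on striatum and cortex of C57BL/6 mice at 6 months (100 libraries) and 12 months (117 libraries), from 110 mice in all. Every mouse, controls included, carried the lac repressor transgene (LacIR) under the β-actin promoter, which is active in all cell types. LacQ140 mice were heterozygous for a knocked-in 140Q allele of *Htt* with lac operators at its promoter (labelled Hdh(LacO-140Q/+)) and received isopropyl β-D-1-thiogalactopyranoside (IPTG), which releases the repressor and lets m*Htt* be expressed, from embryonic day 5 until collection. In LacQ140_A mice IPTG was never given, and in LacQ140_2M and LacQ140_8M mice it was stopped at 2 and 8 months, so that the allele was under repression for life or from those ages on. WT mice, labelled Hdh(LacO-+/+), had no 140Q allele and were left untreated (WT) or given IPTG from embryonic day 5 (WT + IPTG). Groups held 10 libraries, 5 from each sex, except for the WT, LacQ140 and LacQ140_8M striatum at 12 months, with 9 libraries of 4 females and 5 males, and LacQ140_8M was sampled at 12 months only. Whole tissue was sequenced, so fewer cells of a type and less RNA per cell cannot be told apart in any of the values.

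*Malat1* and *Neat1* are neighbouring genes whose long transcripts lack an ordinary poly(A) tail. *Malat1* RNA gathers in nuclear speckles, the stores of splicing factors, and the long isoform of *Neat1* is the scaffold on which paraspeckles assemble. *Meg3*, *Rian* and *Mirg* are expressed from the maternal copy of the imprinted *Dlk1*-*Dio3* domain and host small nucleolar RNAs or microRNAs in their introns and exons. *Miat*, also called Gomafu, is a neuronal nuclear RNA that can bind splicing factors, and *Snhg11* is a host gene of small nucleolar RNAs.

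By the GENCODE vM21 annotation of GRCm38, *Malat1* (ENSMUSG00000092341) lies at chr19:5795690-5802672 and *Neat1* (ENSMUSG00000092274) at chr19:5824708-5845478, both on the minus strand and 22035 bases apart. *Meg3* (ENSMUSG00000021268, chr12:109541001-109571726), *Rian* (ENSMUSG00000097451, chr12:109603940-109661716) and *Mirg* (ENSMUSG00000097391, chr12:109729764-109749460) follow one another on the plus strand within 208460 bases. *Miat* (ENSMUSG00000097767) lies at chr5:112213228-112229395 on the minus strand, and *Snhg11* (ENSMUSG00000044349) at chr2:158375638-158386145 on the plus strand. Their longest annotated transcripts run from 3822 nt (*Mirg*) to 20771 nt (*Neat1*). *Snhg11* is annotated as protein coding and the other 6 genes as noncoding. The counting was not stated to use strand, so reads of an overlapping antisense transcript would be included.

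The ends of *Malat1* and *Neat1* are shown because they set these transcripts apart from the other 5. Capitals mark the 3 runs of at least 11 bases that both ends share in the same order. The first 2 runs are rich in T and the third is the A-rich tract that pairs with them in a triple helix in place of a tail. *Malat1* is shown over chr19:5795962-5796101 and *Neat1* over chr19:5824708-5824827, both on the minus strand.
Malat1: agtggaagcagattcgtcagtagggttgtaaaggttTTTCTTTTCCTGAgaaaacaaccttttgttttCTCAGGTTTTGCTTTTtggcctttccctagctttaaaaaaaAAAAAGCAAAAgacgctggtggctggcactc
Neat1: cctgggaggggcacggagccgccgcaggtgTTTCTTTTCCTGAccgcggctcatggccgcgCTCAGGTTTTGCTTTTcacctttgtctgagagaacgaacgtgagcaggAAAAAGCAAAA
The annotated *Neat1* transcript stops at this tract, with 0 bases after it. That of *Malat1* has 292 more bases, which begin with the tRNA-like RNA that RNase P cuts off. The A-rich run occurs in 0.548% of 55450 annotated transcripts, *Snhg11* among them.

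The last 50 bases of the longest *Meg3*, *Mirg* and *Snhg11* transcripts hold the polyadenylation signal AATAAA, and those of *Miat* the variant ATTAAA. The longest *Rian* transcript holds AATAAA as well, just before an annotated end that lies short of the end of the gene. The signal is shown in capitals for *Meg3*, chr12:109571677-109571726 on the plus strand.
Meg3 3prime end: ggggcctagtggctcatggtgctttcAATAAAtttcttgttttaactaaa
*Miat* holds 6 copies of TACTAAC, the letters of an intron branch point, and 2 of 4190 annotated transcripts of at least 5000 nt, *Miat* included, hold 6 or more. A stretch with 3 of them, in capitals, is chr5:112217299-112217470 on the minus strand.
Miat TACTAAC stretch: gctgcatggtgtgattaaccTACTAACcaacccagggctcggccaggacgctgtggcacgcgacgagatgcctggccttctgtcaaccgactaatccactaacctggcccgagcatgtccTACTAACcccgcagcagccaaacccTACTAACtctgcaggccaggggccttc
By RefSeq (GRCm38.p6), *Mirg* spans 14 listed microRNA hairpins, *Rian* 3 and *Meg3* 1, *Mir770*, and *Meg3* also spans the mature miR-1906. Of the 26 mature products of *Mirg* 3 are given with the seed, bases 2 to 8, in capitals. The first 2 share their seed, and the third is the neuronal miR-134.
mmu-miR-453: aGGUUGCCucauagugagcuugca
mmu-miR-496a-5p: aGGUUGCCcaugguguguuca
mmu-miR-134-5p: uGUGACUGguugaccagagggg

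The promoters of 6 of the 7 genes were read from RefSeq, as 250 bases before to 50 after the start, and searched on both strands for the TATA box (TATAAA), the cAMP response element (TGACGTCA), the GC box (GGGCGG), the CCAAT box (CCAAT), the E box (CACGTG) and the AP-1 site (TGACTCA). The *Meg3* promoter, chr12:109540746-109541045 on the plus strand, is shown because it alone held more than 1 kind of these motifs: CCAAT at position -100, TGACGTCA at -57 and TATAAA 2 times, on opposite strands and overlapping, in the capitals nearest the start. A second *Meg3* start in the table held none of them.
Meg3: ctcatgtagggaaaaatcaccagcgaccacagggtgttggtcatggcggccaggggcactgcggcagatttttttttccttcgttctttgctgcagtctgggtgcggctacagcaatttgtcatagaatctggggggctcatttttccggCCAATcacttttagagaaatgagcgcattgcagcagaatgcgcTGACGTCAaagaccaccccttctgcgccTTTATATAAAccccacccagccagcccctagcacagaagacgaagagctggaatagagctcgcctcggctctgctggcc
TGACGTCA occurred in 1.79% of 32851 promoters, TATAAA in 13.62% and CCAAT in 37.41%. The *Miat* window held 1 GGGCGG and that of *Mirg* 1 CCAAT, and those of *Snhg11*, *Rian* and *Malat1* held none of the letters searched.

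Libraries held between 33292056 and 68038830 counts, and the 7 RNAs together made up 0.0833% to 0.358% of a library's counts. Values are in CPM, a gene's count relative to the total of its library, scaled by TMM factors, given as mean ± SD over mice. By the labels the 6-month libraries were one batch and the 12-month libraries another, each with its own count table, so age and batch cannot be told apart, and tests were made within one age. The targeted gene *Htt* was lower in LacQ140 than in WT + IPTG mice in 6-month cortex (log2 fold change -0.36, adjusted p = 0.0043) and 12-month striatum (-0.40, adjusted p = 9.03e-06), and not called in the other 2 sets. Against LacQ140 mice, *Htt* in LacQ140_A mice differed by -0.21 and -0.25 in 6- and 12-month striatum and by -0.20 and -0.49 in 6- and 12-month cortex. In LacQ140_2M mice the differences were -0.20, -0.15, -0.29 and -0.43 in the same order, and in LacQ140_8M mice -0.0012 in striatum and -0.41 in cortex at 12 months. None of these was called. Only that of LacQ140_A in 12-month striatum passed the p-value threshold (adjusted p = 0.049, edgeR), and it was under the 20% bound. Markers of striatal projection neurons summed to at least 3972 CPM in every LacQ140 and WT + IPTG striatal library and at most 535 CPM in their cortical ones.
One property set the 12-month cortex apart. The slope of log2 CPM on log2 transcript length over genes other than the 7 averaged 0.42 ± 0.069 in 6-month striatum (n = 50), 0.49 ± 0.068 in 12-month striatum (n = 57) and 0.41 ± 0.10 in 6-month cortex (n = 50). In 12-month cortex it was -0.07 ± 0.11 (n = 60), and its highest value, 0.16, was below the lowest of the other libraries, 0.19. Long transcripts therefore took a smaller share of the counts in 12-month cortex, and no comparison of the condition groups within a tissue and age showed a slope difference past adjustment (lowest p = 0.016, adjusted p = 0.288, permutation test, 18 comparisons).

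Compared per kilobase of the longest transcript, *Snhg11*, *Rian* and *Meg3* were the most abundant of the 7 in every tissue and age, but the place of *Rian* in striatum depended on the length used. In 6-month striatum they stood at 67.5 ± 16.5, 64.4 ± 7.85 and 64.1 ± 15.7 CPM per kb (n = 50), with *Rian* above *Meg3* in 46% of the libraries. *Malat1* followed at 32.9 ± 9.32 CPM per kb, below *Meg3* in 100% of the libraries. *Neat1* was at 4.37 ± 1.09, *Mirg* at 3.22 ± 0.535 and *Miat* at 2.82 ± 0.694 CPM per kb, and *Mirg* exceeded *Miat* in 78% of the libraries. The 3 leaders were thus not separated from one another beyond the spread between mice, whereas *Malat1* was separated from the 3 RNAs below it. Counts are per gene over all transcripts, and *Rian* has 18234 nt of exons in all against 8089 nt in its longest transcript. Per kilobase of all exons, a length tried after the values were seen, *Malat1* stood above *Rian* in striatum, at 32.9 against 28.6 ± 3.48 CPM per kb at 6 months and at 32.2 against 20.7 ± 1.73 CPM per kb at 12 months. *Mirg* was then the lowest of the 7 there, at 1.69 and 1.41 CPM per kb, and *Miat* stood above it. Per kilobase of the longest transcript, the order in 12-month cortex was steeper, from *Rian* at 139.8 ± 37.7 to *Neat1* at 0.945 ± 0.279 CPM per kb (n = 60).

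To ask how m*Htt* expression was accompanied by changes in these RNAs, LacQ140 mice were compared with WT + IPTG mice. In striatum *Malat1* and *Neat1* fell at 6 months, and *Miat* and *Mirg* rose at 12 months. In cortex no member was called at either age.

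In 6-month striatum, *Malat1* had 78.5 CPM in the lowest LacQ140 library, 189.5 at the median and 272 in the highest. The WT + IPTG libraries ran from 128 over 306 to 343 CPM. All 10 LacQ140 libraries lay below the WT + IPTG median, although the ranges overlapped. The means were 188 ± 53.4 and 281 ± 70.0 CPM, which is 0.672-fold or -0.57 on the log2 scale (SE 0.16, adjusted p = 0.0096, edgeR).
*Neat1* ran from 36.9 over 79.1 to 110 CPM in LacQ140 mice and from 84.9 over 103 to 123 CPM in WT + IPTG mice. Of the 10 LacQ140 libraries 9 were below the WT + IPTG median, and the lowest 3 (F5, F1 and M4), at 36.9 to 49.5 CPM, stood apart from the others, which began at 72.2 CPM. Its means were 74.6 ± 23.5 and 103 ± 13.6 CPM, a log2 difference of -0.47 (SE 0.14, adjusted p = 0.019). Without any one of those 3 libraries the adjusted p was 0.052 to 0.056, with log2 fold changes of -0.41 to -0.39, so the *Neat1* call rests on them.

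With *Malat1* and *Neat1*, 2 of the 7 members were called at 6 months, an adjusted p under 0.05 and a change of at least 20% being needed. Over all 35808 genes tested, 7.93% were called, and over the 14729 with a mean of at least 1 CPM, 15.5%. The other 5 were not called. *Meg3* (log2 fold change 0.01, 95% interval -0.27 to 0.30), *Rian* (-0.01, -0.15 to 0.13) and *Mirg* (-0.04, -0.23 to 0.16) had intervals around 0, and *Miat* (0.15, SE 0.14) and *Snhg11* (-0.18, SE 0.15) did not pass either. The median log2 fold change of the genes at 1 CPM or more was -0.01.
Oligodendrocyte markers moved in the same contrast, with 5 of 8 called lower and the sum at 10292 to 12877 CPM in LacQ140 against 13391 to 17183 CPM in WT + IPTG libraries. Among the 8 markers of striatal projection neurons, 7 were called lower, with sums of 4590 to 5905 against 5686 to 8382 CPM. Of the microglial markers 3 of 6 were called lower, among them *Cx3cr1* (-0.29), with sums of 434 to 509 against 508 to 601 CPM. Of the astrocyte markers 2 of 6, *Aqp4* and *Slc1a2*, were called lower (2502 to 3310 against 3003 to 4118 CPM), and of the endothelial markers 1 of 5, *Ly6c1* (208 to 248 against 231 to 320.3 CPM). The choroid plexus markers summed to 28.7 to 87.8 CPM in LacQ140 libraries and to 23.8 to 52.0 CPM in all WT + IPTG libraries but male M5, at 722 CPM, and 1 of 5, *Ttr*, was called lower (-1.73 on the log2 scale). Without M5 the log2 fold changes were -0.66 for *Malat1* (adjusted p = 0.0017) and -0.50 for *Neat1* (adjusted p = 0.015). No marker on these lists was called higher, while among 6 cortical excitatory neuron markers 1 was called higher and 1 lower. Mitochondrial transcripts took 6.49% to 8.88% of the counts in LacQ140 and 6.94% to 10.97% in WT + IPTG libraries. The part of these cell types and of the mitochondrial share in the levels of *Malat1* and *Neat1* was not tested.

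In 12-month striatum *Miat* ran from 18.3 over 28.5 to 44.0 CPM in the 9 LacQ140 libraries. In the 10 WT + IPTG libraries it ran from 11.6 over 13.5 to 37.5 CPM. Every LacQ140 library exceeded the control median, and 9 of 10 control libraries lay at or below 19.1 CPM, the exception being male M5 at 37.5 CPM. Means of 28.5 ± 8.10 and 16.1 ± 7.84 CPM stood 1.77-fold apart, or 0.83 on the log2 scale (SE 0.18, adjusted p = 0.00041).
*Mirg* ran from 9.26 over 11.8 to 16.0 CPM in LacQ140 and from 7.17 over 9.28 to 11.8 CPM in WT + IPTG libraries, with 8 of 9 above the control median. Its means of 12.5 ± 2.26 and 9.19 ± 1.46 CPM differed by 0.44 on the log2 scale (SE 0.12, adjusted p = 0.0089). *Rian*, its neighbour in the domain, ran from 378 over 398 to 455 CPM against 319.8 over 349.6 to 415 CPM, and 9 of 9 libraries were above the control median. *Rian* passed the p-value threshold (adjusted p = 0.00078) with a 1.15-fold difference (0.20 on the log2 scale, SE 0.046), which is under the 20% bound; with no bound, 14% of genes passed.
*Meg3*, the third RNA of the domain, was at 855 ± 165 and 697 ± 259.8 CPM, 0.30 apart on the log2 scale (SE 0.16, adjusted p = 0.27). *Snhg11* was at 322 ± 66.4 and 263 ± 96.9 CPM (0.29, SE 0.16, adjusted p = 0.28). In both, the highest value of either group belonged to the control male M5, at 1356 CPM for *Meg3* and 505 CPM for *Snhg11*. Without that library *Meg3* (0.46, adjusted p = 0.027) and *Snhg11* (0.45, adjusted p = 0.031) were called too, and *Miat* stood at 1.05 (adjusted p = 9.65e-07).

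Thus 2 of 7 members were called at 12 months, against 9.44% of 35386 genes tested and 17.8% of the 14585 at 1 CPM or more. Those shares are from the fit with every library. Without M5, 4 of 7 were called, and the share of all genes called in that fit was not computed. Of 19 fits that each left out 1 library, *Meg3* and *Snhg11* were called in 1 each. *Malat1* at 211 ± 37.2 and 238 ± 76.8 CPM (-0.18 on the log2 scale, SE 0.16, adjusted p = 0.62) and *Neat1* at 82.2 ± 18.9 and 90.4 ± 18.9 CPM (-0.14, SE 0.14, adjusted p = 0.66) were not called at this age.
Cortical excitatory neuron markers, which belong to the tissue next to the striatum, rose in this contrast, 3 of 6 being called higher. The other 8 LacQ140 libraries summed to 28.5 to 48.4 CPM, within the control range of 19.1 to 94.9 CPM, and male M2 alone to 351 CPM. That library also had the highest *Miat*, 44.0 CPM, and cortex has more *Miat* than striatum. Without M2 the rise of *Miat* was 0.72 (adjusted p = 0.0027) and that of *Mirg* 0.46 (adjusted p = 0.0095), so both were called without it. Without M2 and M5 together, a setting chosen after these values were seen, *Miat* (0.94, adjusted p = 7.51e-06), *Mirg* (0.49, adjusted p = 0.0045) and *Meg3* (0.43, adjusted p = 0.047) were called and *Snhg11* was not (0.42, adjusted p = 0.058). Choroid plexus markers were also unequal, at 24.6 to 42.7 CPM in LacQ140 and 22.5 to 424 CPM in WT + IPTG libraries. Markers of striatal projection neurons (7 of 8), oligodendrocytes (4 of 8), endothelial cells (2 of 5), astrocytes (1 of 6), microglia (1 of 6) and choroid plexus (1 of 5) were called lower at 12 months. The mitochondrial share was 6.69% to 10.4% in LacQ140 and 6.62% to 9.78% in WT + IPTG libraries. The part of these in the levels of the members was not tested.

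**Figure D1:**
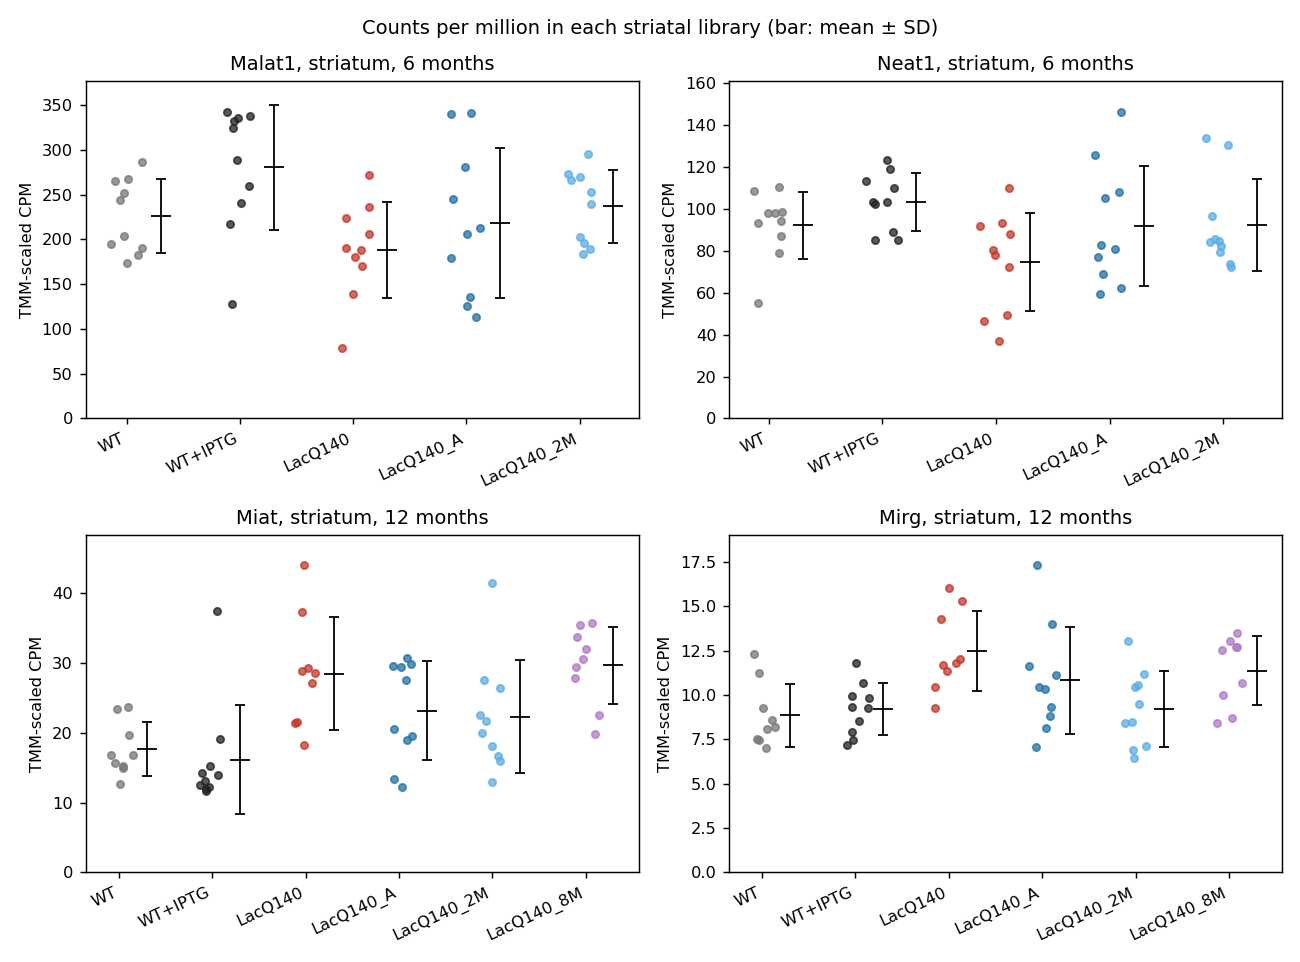
TMM-scaled CPM of *Malat1* and *Neat1* in 6-month striatum and of *Miat* and *Mirg* in 12-month striatum, 1 point per library, with the mean ± SD beside each group. LacQ140 libraries sit lower than WT + IPTG libraries in the upper panels and higher in the lower panels, with overlap in all 4, and the control library M5 stands at 37.5 CPM of *Miat*.

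In cortex the same contrast called 0 of 7 members at 6 months, where 0.881% of 35987 genes were called, and 0 of 7 at 12 months, where 0.0899% of 34493 were. At an unadjusted p under 0.05, 3578 and 2995 genes passed. DESeq2 called 0 members at both ages. *Malat1* was at 184 ± 48.8 CPM in LacQ140 and 184 ± 84.0 in WT + IPTG cortex at 6 months, a log2 fold change of 0.00 with a 95% interval of -0.50 to 0.49, which reaches down to nearly the value found in striatum. *Mirg* had the lowest unadjusted p, 0.032 at 12 months, with 17.3 ± 3.03 against 22.1 ± 7.78 CPM (-0.35 on the log2 scale, SE 0.16, adjusted p = 0.53).
The difference between the tissues was tested on mice with both, with the mouse as a block. At 12 months the *Mirg* effect in striatum exceeded that in cortex by 0.70 on the log2 scale (SE 0.21, adjusted p = 0.048), and it was the 1 member called of 7, where 2.8% of 37294 genes were called. With the length slope as a covariate it was 0.53 (adjusted p = 0.085). For *Miat* at 12 months (0.76, SE 0.28, adjusted p = 0.15) and for *Malat1* (-0.70, SE 0.31, adjusted p = 0.44) and *Neat1* (-0.50, SE 0.18, adjusted p = 0.25) at 6 months, where 1.12% of 37981 genes were called, a difference between the tissues was not shown.

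**Figure D2:**
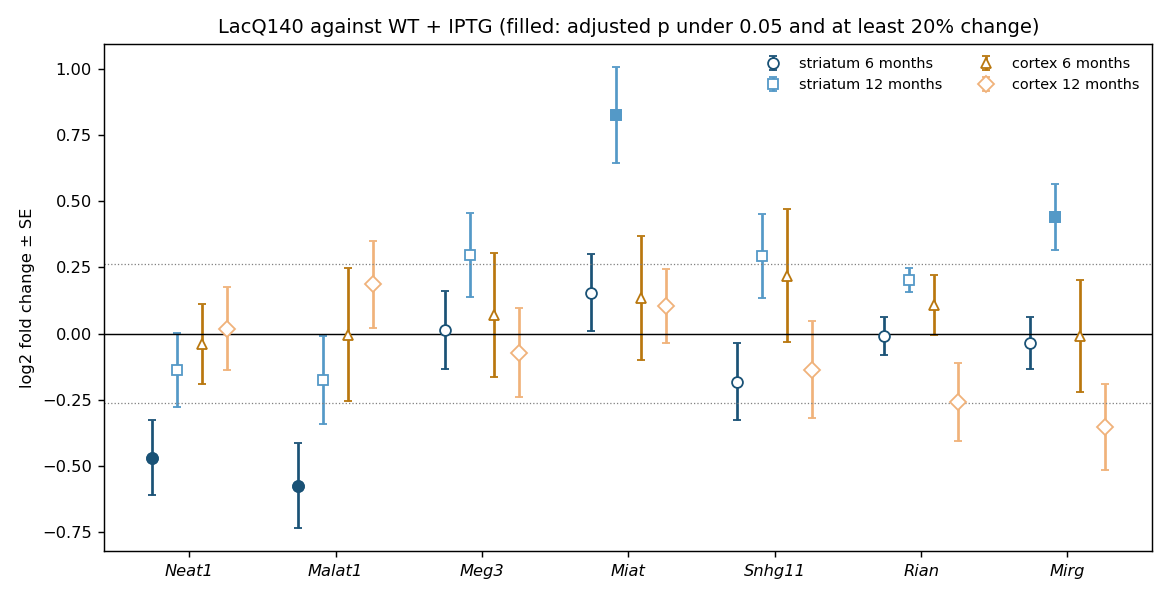
Log2 fold change ± SE of each RNA between LacQ140 and WT + IPTG mice in the 4 sets of one tissue and age, with dotted lines at a 20% change. Filled symbols mark *Malat1* and *Neat1* in 6-month striatum and *Miat* and *Mirg* in 12-month striatum, the 4 called values.

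Repression of m*Htt* was examined by comparing each lowering group with LacQ140, so that these contrasts share the LacQ140 libraries with one another and with the contrast above. No member was called in any of the 10. Called genes overall made up 1.88% (LacQ140_A) and 1.26% (LacQ140_2M) in 6-month striatum, and 0.91%, 0.608% and 0.00565% (LacQ140_8M) in 12-month striatum. In cortex they made up 0.00834% and 0% at 6 months and 0.0435%, 0.0841% and 0% at 12 months. In the 2 cortical contrasts without a called gene, 3498 (LacQ140_2M, 6 months) and 977 (LacQ140_8M, 12 months) genes had an unadjusted p under 0.05, and DESeq2 called 0 members in them.
In 6-month striatum *Malat1* stood at 218 ± 83.5 CPM in LacQ140_A and 237 ± 40.7 in LacQ140_2M mice. These means lie between those of LacQ140 and WT + IPTG mice, and the differences from LacQ140 were 0.21 (95% interval -0.10 to 0.52) and 0.33 (0.02 to 0.64, adjusted p = 0.42). *Neat1* was at 91.6 ± 28.7 and 92.2 ± 22.0 CPM, with differences of 0.30 (adjusted p = 0.38) and 0.30 (adjusted p = 0.39). The same LacQ140_A mice held pituitary markers, 3 of 3 called higher, with sums of 1.52 to 115 CPM against 1.01 to 3.77 CPM in LacQ140 libraries.
In 12-month striatum *Miat* was at 23.2 ± 7.09, 22.3 ± 8.13 and 29.7 ± 5.54 CPM in the LacQ140_A, LacQ140_2M and LacQ140_8M groups. The differences from LacQ140 were -0.30 (95% interval -0.64 to 0.05), -0.35 (-0.70 to -0.01) and 0.06 (-0.30 to 0.42), none of them past adjustment. *Mirg* was at 10.8 ± 2.998, 9.20 ± 2.13 and 11.4 ± 1.95 CPM, and its difference in LacQ140_2M mice, -0.43 (SE 0.12, adjusted p = 0.092), was nearest to a call. *Rian* was at 370 ± 18.3, 379 ± 21.8 and 399 ± 33.04 CPM, and the LacQ140_A value differed by -0.13 (SE 0.046, adjusted p = 0.18).
In 12-month cortex *Rian* was at 1231 ± 291 CPM in LacQ140_A against 979 ± 99.3 CPM in LacQ140 mice, with 10 of 10 libraries above the LacQ140 median, and *Mirg* at 22.4 ± 6.53 against 17.3 ± 3.03 CPM. These differences of 0.33 (adjusted p = 0.32) and 0.37 (adjusted p = 0.32) were not called with all groups in the fit, but were when the 2 groups were fitted alone (adjusted p = 0.0045 and 0.021). The mean length slope was -0.12 in LacQ140_A and -0.02 in LacQ140 cortex. With all groups in the fit and the slope as a covariate, the *Rian* difference was -0.02 and that of *Mirg* 0.052 (adjusted p = 1 for both, edgeR).

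IPTG alone was examined in WT mice, with the WT + IPTG libraries of the first contrast. No member was called in any tissue or age, where 0.584%, 0.218%, 0.609% and 0% of all genes were called in 6- and 12-month striatum and 6- and 12-month cortex. In 12-month cortex 2001 genes had an unadjusted p under 0.05, and DESeq2 called 0 members. In 6-month striatum *Malat1* was at 226 ± 41.1 CPM without IPTG, between the LacQ140 and WT + IPTG means (0.31 lower than WT + IPTG on the log2 scale, SE 0.16, adjusted p = 0.58). Larger estimates that missed the threshold came from 6-month cortex. *Meg3* had a lowest value of 268 and a median of 829.6 CPM with IPTG and ran from 232.5 over 390.5 to 731 CPM without it, 0.76 apart on the log2 scale (SE 0.24, adjusted p = 0.12). *Miat* was at 104 ± 46.1 and 61.5 ± 22.7 CPM (0.76, adjusted p = 0.13), *Snhg11* at 348 ± 168 and 209.6 ± 87.2 CPM (0.73, adjusted p = 0.18) and *Mirg* at 9.82 ± 2.52 and 6.06 ± 2.69 CPM (0.70, adjusted p = 0.12). The IPTG-treated libraries covered a wider range than the untreated ones in *Meg3*, *Miat* and *Snhg11*, and their lowest libraries lay within the untreated range. In the same contrast choroid plexus markers summed to 9.31 to 2058 CPM with IPTG and 8.76 to 171 CPM without it, 0 of 5 being called, and 2 of 6 astrocyte and 1 of 8 oligodendrocyte markers were called lower. Mitochondrial transcripts took 7.38% to 9.90% of the counts with IPTG and 7.76% to 12.4% without it. The part of these in the differences was not tested.

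**Figure D3:**
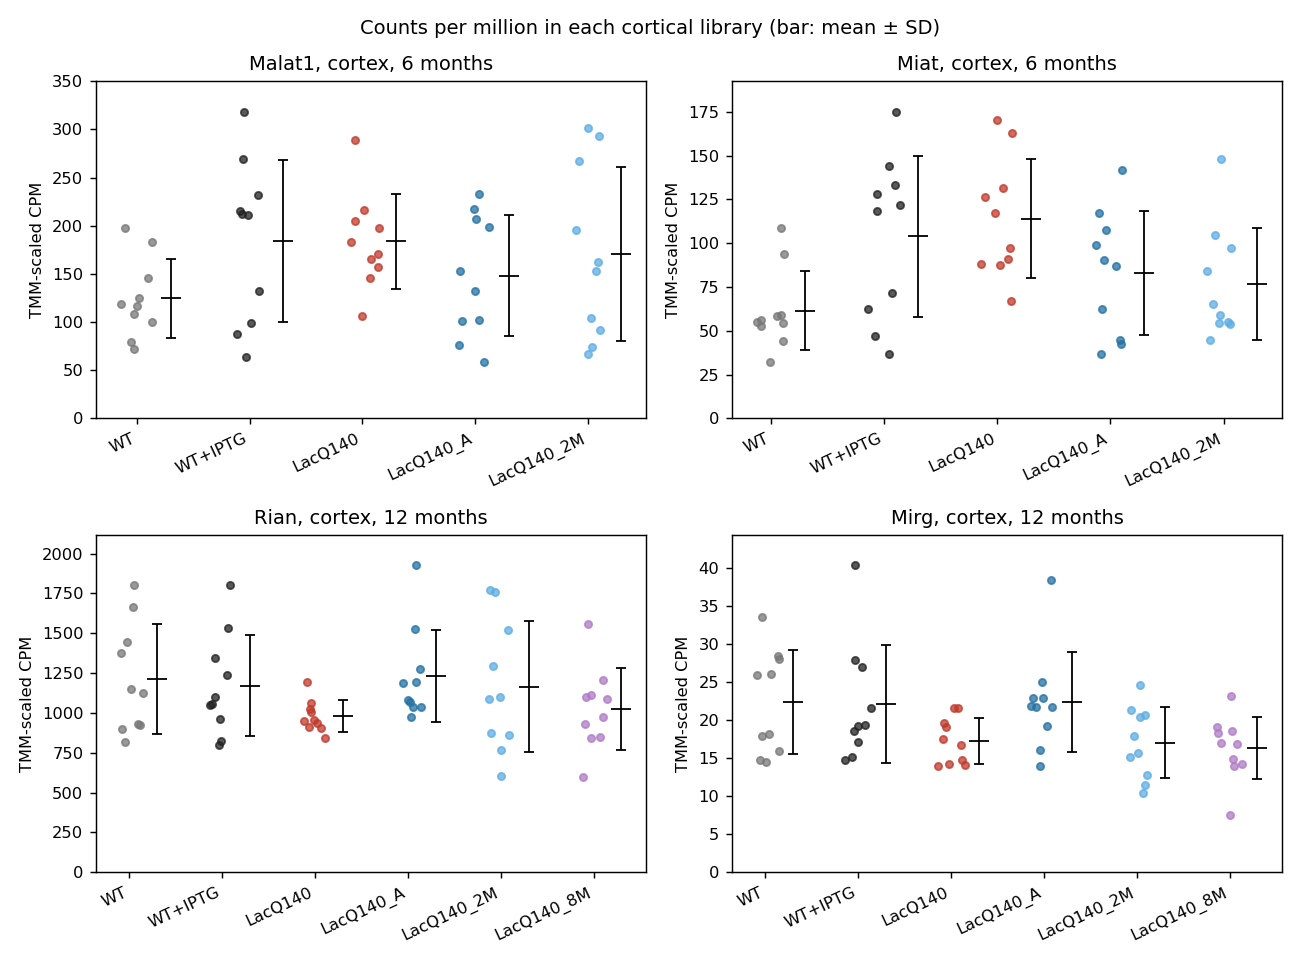
TMM-scaled CPM of *Malat1* and *Miat* in 6-month cortex and of *Rian* and *Mirg* in 12-month cortex, 1 point per library, with the mean ± SD beside each group. The groups overlap in every panel, and *Miat* runs from 37.0 to 175 CPM within the WT + IPTG group alone.

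Striatum and cortex differed in 6 of the 7 RNAs. In 6-month WT mice (n = 10 with both tissues, mouse as a block) *Neat1*, *Malat1*, *Meg3*, *Snhg11* and *Mirg* were higher in striatum and *Miat* was higher in cortex, 6 of 7 members being called, where 28.6% of 37981 genes were. Those genes needed only 1 count, and the share among genes at 1 CPM or more was not computed for the tissue comparison at either age. *Neat1* stood at 91.5 ± 16.0 CPM in striatum and 48.2 ± 12.7 in cortex, higher in striatum in 10 of 10 mice (log2 ratio 0.94, SE 0.13, adjusted p = 1.09e-08). *Malat1* was higher in 10 of 10 mice by 0.88 (SE 0.21, adjusted p = 0.0006), *Meg3* in 10 of 10 by 1.06 (SE 0.21), *Snhg11* in 9 of 10 by 0.93 (SE 0.21) and *Mirg* in 10 of 10 by 1.04 (SE 0.18). *Miat* was at 22.7 ± 4.94 CPM in striatum and 62.3 ± 23.0 in cortex, lower in striatum in each of the 10 mice (-1.41, SE 0.21, adjusted p = 8.32e-08). *Rian* differed by 0.23 (SE 0.094, adjusted p = 0.057) and was not called.

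At 12 months (n = 9) the RNAs split into other sets. *Neat1* and *Malat1* were higher in striatum by 1.92 (SE 0.14) and 2.12 (SE 0.19) in 9 of 9 mice, and *Miat* was lower by -1.87 (SE 0.20). *Snhg11* (-1.30, SE 0.20) and *Mirg* (-1.43, SE 0.15), higher in striatum at 6 months, were now lower in 9 of 9 mice, and *Rian* stood at 343 ± 25.5 CPM in striatum and 1230 ± 338 in cortex (-1.80, SE 0.12, adjusted p = 3.34e-22). *Meg3* was not called (0.21, SE 0.19). Again 6 of 7 were called, where 44.2% of 37294 genes were.
The length slope moved with the tissue at 12 months, with no overlap of striatal and cortical libraries, so tissue and slope cannot be told apart across the whole set. With the slope as a covariate, which then rests on its spread within each tissue, 2 members were called at 12 months. *Neat1* kept a log2 ratio of 1.32 (adjusted p = 0.015) and *Miat* one of -3.17 (adjusted p = 8.6e-06), *Malat1* was at 1.37 (adjusted p = 0.063), *Snhg11* at -0.20, *Rian* at -0.10 and *Mirg* at 0.40, which is the other direction (adjusted p = 0.70). At 6 months, when slopes of the tissues overlapped, 6 members were called with the covariate too.

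**Figure D4:**
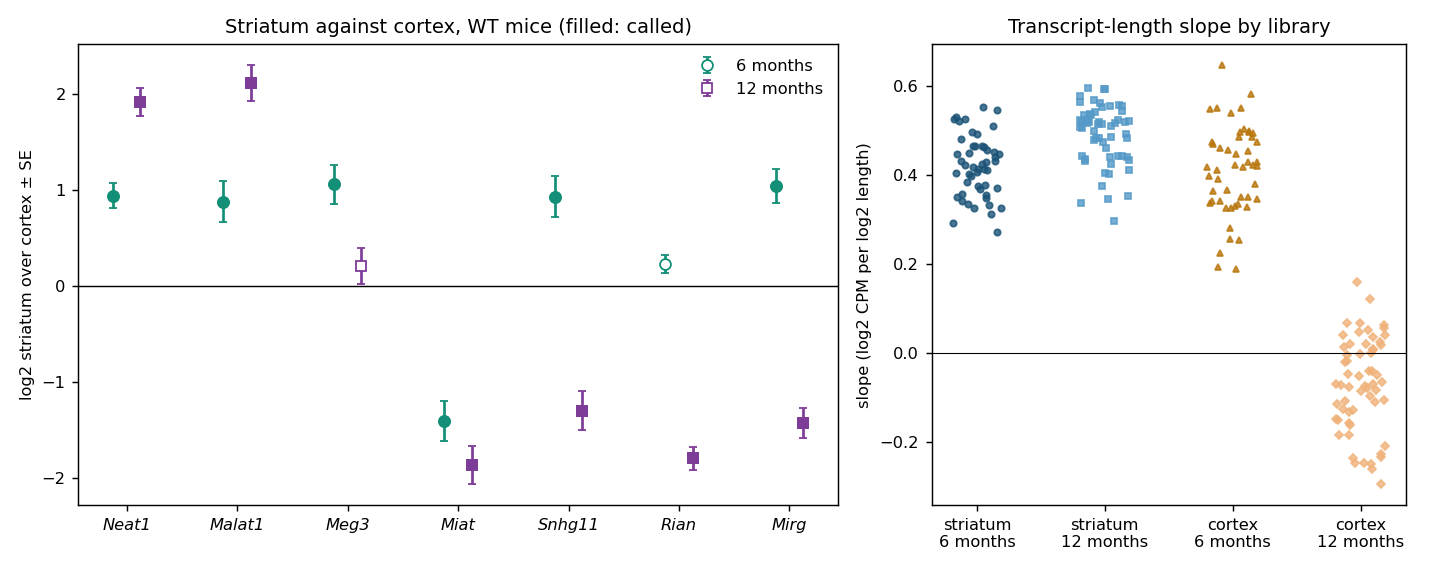
Left, log2 ratio of striatum over cortex ± SE in WT mice at 6 months (circles, n = 10) and 12 months (squares, n = 9), with called values filled. Right, the transcript-length slope of every library, which lies between -0.30 and 0.16 in 12-month cortex and between 0.19 and 0.65 in the other 3 sets.

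Within one tissue and age, with group means subtracted, the level of a member was related to the slope of its library in 10 of 28 tests past adjustment over the 28. The slope is itself made from the levels of other genes, and the share of all genes related to it was not computed. The count therefore has no baseline and does not mark a trait particular to these RNAs. All relations named here have Pearson's r and Spearman's rho with permutation p-values from 100000 resamples, 1e-05 being the smallest they can give, and adjusted values are given for r and rho in that order. *Rian* fell with the slope in 12-month cortex (r = -0.89, rho = -0.89, n = 60, adjusted p = 7e-05 and 9.33e-05), in 6-month cortex (r = -0.61, rho = -0.60, n = 50, adjusted p = 7e-05 and 9.33e-05) and in 6-month striatum (r = -0.44, rho = -0.49, n = 50, adjusted p = 0.0069 and 0.002). Without the 2 libraries farthest from the median slope these r were -0.88, -0.62 and -0.53. *Mirg* behaved alike in cortex, with r = -0.72 at 12 months (rho = -0.69, adjusted p = 7e-05 and 9.33e-05) and r = -0.60 at 6 months (rho = -0.57, adjusted p = 7e-05 and 0.00021). Without the 2 farthest libraries its r was -0.68 and -0.54. *Malat1* went the other way in 6-month cortex (r = 0.38, rho = 0.35, adjusted p = 0.018 and 0.039) and 6-month striatum (r = 0.38, rho = 0.36, adjusted p = 0.018 and 0.036), with r of 0.38 and 0.37 without the 2 farthest libraries. In 12-month cortex *Snhg11* fell with the slope (r = -0.51, rho = -0.46, adjusted p = 0.00017 and 0.0016). *Meg3* fell too (r = -0.35, rho = -0.29, adjusted p = 0.018 and 0.068), although its rho missed the threshold, and *Miat* rose (r = 0.37, rho = 0.36, adjusted p = 0.014 and 0.021). In 12-month striatum 0 of 7 relations passed, where r ran from -0.25 to 0.21. With the slope as a covariate the LacQ140 effect on *Miat* was 0.84, on *Mirg* 0.41, on 6-month *Malat1* -0.57 and on 6-month *Neat1* -0.48, all of them called.

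**Figure D5:**
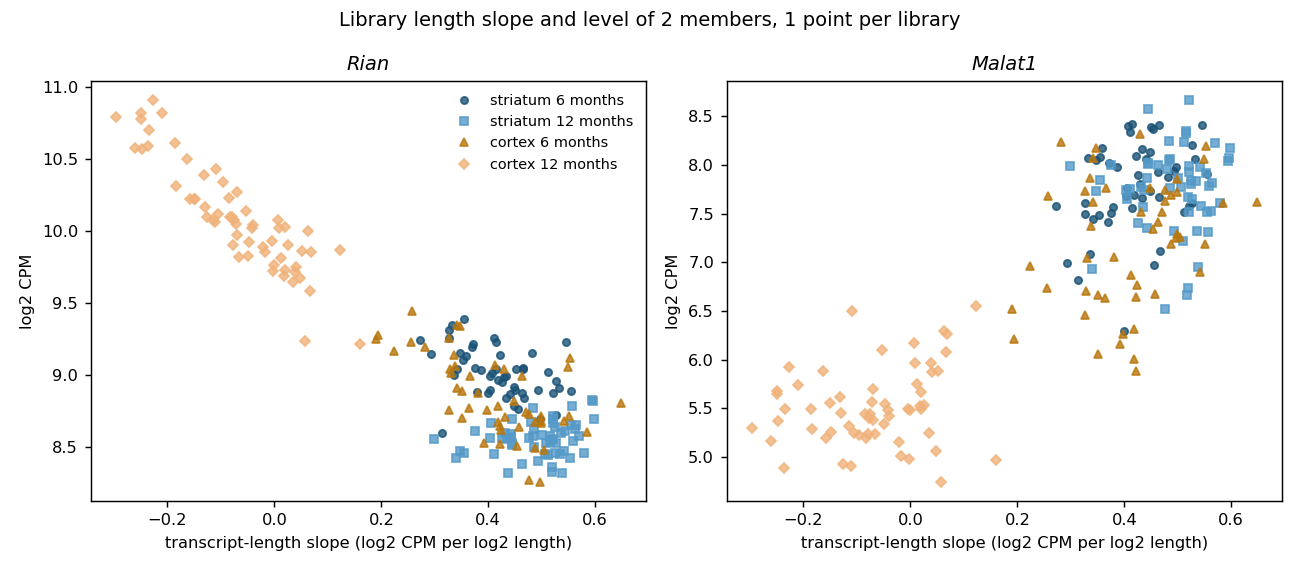
Log2 CPM of *Rian* (left) and *Malat1* (right) against the transcript-length slope, 1 point per library, by tissue and age. Points of 12-month cortex lie at slopes under 0.16 and at high *Rian* and low *Malat1*, and *Rian* falls with the slope within that set (r = -0.89).

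Most pairs of the 7 RNAs rose and fell together from mouse to mouse. After group means were subtracted, all 21 pairs in 12-month striatum correlated past adjustment over 84 tests, and 19, 20 and 16 of 21 in 6-month striatum, 6-month cortex and 12-month cortex. How many pairs of other genes would pass was not computed, so these counts have no baseline. The closest pair in each set was *Meg3* with *Snhg11*, which lie on different chromosomes, or *Meg3* with *Miat*. In 12-month striatum *Meg3* and *Snhg11* had r = 0.97 and rho = 0.97 (n = 57, r = 0.97 without the 2 farthest libraries, adjusted p = 1.53e-05), and in 6-month cortex *Meg3* and *Miat* had r = 0.99 and rho = 0.98 (n = 50, r = 0.98, adjusted p = 1.53e-05). The neighbours *Neat1* and *Malat1* had r = 0.43 in 6-month cortex (rho = 0.48, n = 50, adjusted p = 0.0019) and 0.62 in 12-month cortex. In 6- and 12-month striatum their r was 0.50 and 0.54. Their difference from the closest pairs was not tested. The values of one library share its depth, slope and RNA quality, which all pairs have in common.
Among 13792 genes with at least 1 CPM in each tissue and age, the closest to *Meg3* over all libraries, with group means subtracted, were *Snhg11* (r = 0.967) and *Leng8* (0.932), the latter also among the 3 closest to *Miat* (0.854) and *Snhg11* (0.92). *Malat1* was closest to *Snhg14* (0.863), the host transcript of the Prader-Willi region. *Rian* was closest to *Taf1d* (0.904), *Mirg* to *Ccnl2* (0.885), which codes for a cyclin of nuclear speckles, and *Neat1* to *Nrbp2* (0.667). These are descriptions over libraries that share the properties just named.

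Genes that work with these RNAs were counted by lists. Each count is read against the shares of all genes called in the same contrast, which were 7.93% in 6-month striatum (15.5% of genes at 1 CPM or more), 9.44% in 12-month striatum (17.8% at 1 CPM or more), 0.881% in 6-month cortex and 0.0899% in 12-month cortex. In 6-month striatum of LacQ140 mice, 4 of 18 paraspeckle protein genes were called against WT + IPTG, where 15.5% of genes at 1 CPM or more were. *Sfpq*, a core protein of paraspeckles, fell (69.9 CPM against 93.1, -0.41 on the log2 scale, adjusted p = 0.0011), as did *Srsf10* (-0.34, adjusted p = 0.0011). *Rbm3*, a cold-inducible RNA-binding protein, rose (0.37, adjusted p = 0.0066), and the median of the 18 was -0.03. In 6-month cortex 2 of 18 were called, both lower, *Sfpq* (-0.36, adjusted p = 0.042) and *Hnrnph3* (-0.34, adjusted p = 0.0049). In 12-month striatum *Rbm3* alone was called (0.44, adjusted p = 0.010), and in 12-month cortex 0 of 18 were.
Of 20 nuclear speckle protein genes 0 were called in 6-month striatum, against 7.93% of all genes, and 1 in 12-month striatum, against 9.44%, the splicing factor gene *Srsf5* (0.31, adjusted p = 0.031). Of 13 genes of nuclear RNA processing, *Mettl3*, the catalytic subunit of the m6A writer, fell in 6-month striatum (-0.35, adjusted p = 0.00049) and *Mettl16*, which binds the *Malat1* triple helix, fell in 6-month cortex (-0.33, adjusted p = 0.023).
Around the *Dlk1*-*Dio3* domain, *Begain*, which lies upstream of *Dlk1* and codes for a postsynaptic protein, rose in striatum at 6 months (0.44, adjusted p = 2.43e-05) and 12 months (0.30, adjusted p = 0.00026), and *Slc25a29* rose at 6 months (0.30, adjusted p = 0.0077). The list's other genes were not called, so that 2 and 1 of 11 were called, all higher, counts near the shares of all genes (7.93% and 9.44%, or 15.5% and 17.8% at 1 CPM or more). Among the 10 genes near *Neat1* and *Malat1*, *Slc25a45* fell at 6 months (-0.30, adjusted p = 0.0091) and *Pola2* rose at 12 months (0.40, adjusted p = 6.38e-05), with medians of 0.02 and -0.06.
Of 33 other long noncoding RNAs measured, 4 were called in 6-month striatum and 3 in 12-month striatum, and 0 in cortex at either age. These counts too lie near the shares of all genes, 7.93% and 9.44% in striatum and 0.881% and 0.0899% in cortex. *Dlx6os1*, transcribed beside *Dlx6* in inhibitory neurons, fell at both ages (-0.38, adjusted p = 0.00083, and -0.52, adjusted p = 3.54e-06), and *Mir9-3hg*, the host gene of miR-9, rose at both (0.53, adjusted p = 0.00018, and 0.45, adjusted p = 0.0053). *A330008L17Rik* fell at 6 months and *Snhg3* rose at 12 months. The medians of the list were -0.01 and 0.11.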

How the data were processed

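Striatum and cortex were flash frozen, total RNA was extracted and libraries were made by standard protocols and sequenced on an Illumina NovaSeq instrument, per the labels and the study's methods. The sample titles call the RNA mRNA, and whether poly(A) RNA was selected is not given in the sources used here. The authors deposited 1 table of expected counts per age (54532 genes, mapped to GRCm38 per the labels), in which 32.52% of the nonzero values were not whole. The aligner, the counting tool and its use of strand are not given in the sources used here. A transcript without a poly(A) tail is caught less well where poly(A) RNA is selected, which bears on the levels of *Malat1* and *Neat1*.

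Groups were taken from the sample labels. Expected counts were rounded to whole numbers, scaled by TMM and tested with edgeR (version 4.0.16, R 4.3.3) by the quasi-likelihood F-test, with all groups of one tissue and age in a fit on group alone, over genes with at least 1 count there. P-values were adjusted by Benjamini-Hochberg over all genes of a fit, and a gene was called at an adjusted p under 0.05 with a change of at least 20%. Every adjusted p in the text is from edgeR unless another test is named, and 95% intervals are the estimate ± 1.96 SE. Striatum and cortex of the same mice were compared with mouse as a block. DESeq2 (1.42.0) was an alternative, as were DESeq2 size factors, edgeR's filter on low genes (filterByExpr), no fold bound, the 2 groups alone, sex, the length slope or the replicate number as a term, and leaving out each library of LacQ140 against WT + IPTG. The slope was taken over genes with a mean of at least 1 CPM and the longest GENCODE vM21 transcript (54495 genes matched). Relations across libraries were tested by permutation in Python 3.11.15 with scipy 1.17.1, after subtracting group means. The fit was tested on simulated data.

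Depths of 33292056 to 68038830 counts gave every member at least 133 counts in each library, so counting error was small beside the spread between mice. Replicates are separate mice, and 963 pairs of libraries within groups held no pair that differed by less than sampling noise (lowest chi-square per degree of freedom 6.50). The 7 RNAs and the gene lists were chosen with earlier results of these data known. Genes named from a list were at most the 3 with the largest change among those called in LacQ140 against WT + IPTG, and the most alike genes were the 3 with the highest Pearson's r. Same-numbered mice of different groups did not pair (mean correlation of deviations 0.077 to 0.10 in the 4 sets, lowest -0.58).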

Additional observations from a re-analysis of the deposited data

Results flagged for a closer look

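A single library stood apart from the rest of its group in 10 of 154 sets of one RNA in one group, where chance gives about 1 in 20 for independent sets. These sets are not independent, since the RNAs share libraries. The WT + IPTG male M5 at 12 months was the highest of its group in striatum for *Meg3* (1356 CPM, next 789.7), *Snhg11* (505 CPM, next 294) and *Miat* (37.5 CPM, next 19.1). In striatum at 12 months, the LacQ140_2M female F4 had 41.5 CPM of *Miat* (next 27.6), and the LacQ140_2M male M5 was lowest for *Rian* at 328 CPM (next 369). In cortex at 12 months, the LacQ140_A female F4 was highest for *Mirg* (38.4 CPM, next 24.97) and *Snhg11* (1019 CPM, next 646), the WT + IPTG female F4 was highest for *Mirg* (40.4 CPM, next 27.9), and the LacQ140 female F1 was highest for *Neat1* (38.6 CPM, next 24.4). In cortex at 6 months the LacQ140_A female F5 was highest for *Mirg* (13.4 CPM, next 8.37).

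Of 14 tests of whether the LacQ140 effect differed between striatum and cortex, 1 passed, that of *Mirg* at 12 months, with a difference of 0.70 on the log2 scale (adjusted p = 0.048, edgeR). With the length slope as a covariate this difference was not called.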

How the results depend on the processing

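The number of members called stayed within 1.5 times in 192 comparisons of a result with an alternative setting and moved in 3. In the lowering and IPTG contrasts and in LacQ140 cortex no member was called to begin with. The comparisons there mostly set 0 against 0, so the tally says little about stability. Fitting the 2 groups alone called 2 members in LacQ140_A against LacQ140 in 12-month cortex. With the length slope as a covariate, 2 members were called between the tissues at 12 months, where *Mirg* changed direction to 0.40 (adjusted p = 0.70), and 0 in the test of the tissue difference at 12 months. *Rian* in LacQ140_A against LacQ140 in 12-month cortex changed from 0.33 to -0.0245 with that covariate and to -0.0121 with the replicate block added. The striatal and cortical slopes do not overlap at 12 months, and the cause of the other changes was not tested. Leaving out each library in turn gave 1 to 2 called members in 6-month striatum, 2 to 4 in 12-month striatum and 0 in cortex for LacQ140 against WT + IPTG, and LacQ140 F1, F5, M4 and WT + IPTG M5 were the libraries that moved it. Replicate numbers did not pair the mice, and with the replicate block 2 members were called at each age in striatum, as without it, and the block changed no call. In simulated libraries a change was given to a small random set of genes, all with a mean of at least 1 CPM. The fits held 33606 genes in 12-month cortex and 34390 in 12-month striatum. A 1.5-fold change was recovered for 72% and 94% of the genes given it, and a 1.2-fold change for 10% and 24%. Small differences could thus be missed, most of all in 12-month cortex, and genes under 1 CPM were not tried. Per kilobase of all exons in place of the longest transcript, a length chosen after seeing the data, the mean of *Rian* minus that of *Malat1* changed from 31.5 to -4.37 CPM per kb in 6-month striatum and from 14.6 to -11.4 CPM per kb in 12-month striatum, the length of *Rian* being the only one of the pair that differs.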
